A study of Bos taurus with 48 samples.

Results

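QPRT, KYNU and IDO1 are 3 genes of the route that turns tryptophan into NAD, and they were chosen by name and Ensembl identifier (ENSBTAG00000018082, ENSBTAG00000032277 and ENSBTAG00000020602). They are 3 of the 24616 gene rows counted in each sample, and all 3 passed the filter on low counts at both time points. The samples were subcutaneous fat biopsies, taken beside the tail base, of 24 Norwegian Red dairy heifers. Each heifer gave RNA at 12 months of age and a further sample in the gestation month 7, when it was 20 to 24 months old, which made 48 samples.

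The diets crossed energy (HE high, LE low) with protein (HP high, LP low) into LPHE, HPHE, LPLE and HPLE, with 6 heifers each. Each diet held 3 heifers of the high milk yield line (HMY) and 3 of the low clinical mastitis line (LCM). Silage was not limited for HE heifers, LE heifers got a limited amount that was diluted with straw, and the protein level was set by roughage and concentrate. The diets ran from 3 months of age until pregnancy was established, and all heifers then received the same low-energy pregnancy diet. The gestation samples therefore compare heifers by their former diet, and time point, age, pregnancy and change of diet cannot be told apart. Former LE heifers also became pregnant at a later age than former HE heifers, so the former diet and age at the second biopsy cannot be told apart either.

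IDO1 encodes indoleamine 2,3-dioxygenase, which opens the ring of tryptophan in the first step of the kynurenine pathway and is known as an enzyme that interferon gamma induces in immune cells. KYNU encodes kynureninase, which cleaves kynurenine and 3-hydroxykynurenine further down the pathway. QPRT encodes quinolinate phosphoribosyltransferase, which takes the pathway's end product quinolinate into NAD synthesis, the de novo source of this coenzyme of energy metabolism.

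Between 14815595 and 59809633 reads were counted on genes per sample at 12 months and between 22430093 and 61027456 in gestation. Levels are given as CPM, the counts scaled to a common library size, after TMM normalization. Over all samples QPRT had from 527 to 8911 counts and KYNU from 6 to 469. The defining fat cell genes were represented by 2 of the 7 listed markers, LEP and CIDEC, which summed to between 887 and 3378 CPM in every library. The 5 matched muscle markers of 8 summed to over 10 CPM in 10 libraries, of which 3 were HPHE, 3 LPLE and 1 HPLE at 12 months and 2 HPHE and 1 HPLE in gestation. The contrasts in which a member passed are also given without these libraries. In biopsies of whole tissue, fewer cells of a type and less RNA per cell cannot be told apart.

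QPRT was the member with a clear difference between energy levels. It was higher in HE than in LE heifers at 12 months and lower in former HE than in former LE heifers in gestation. At 12 months the lowest, median and highest levels were 95.1, 142 and 199 CPM in LPHE heifers and 80.8, 129 and 194 CPM in HPHE heifers. They were 38.2, 47.2 and 97.9 CPM in LPLE heifers and 44.6, 68.0 and 108 CPM in HPLE heifers. The order of the medians was thus LPHE, HPHE, HPLE and LPLE. The LPHE and LPLE ranges overlapped through heifer 4 of LPLE alone, since the next LPLE heifer had 50.2 CPM.

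**Figure D1:**
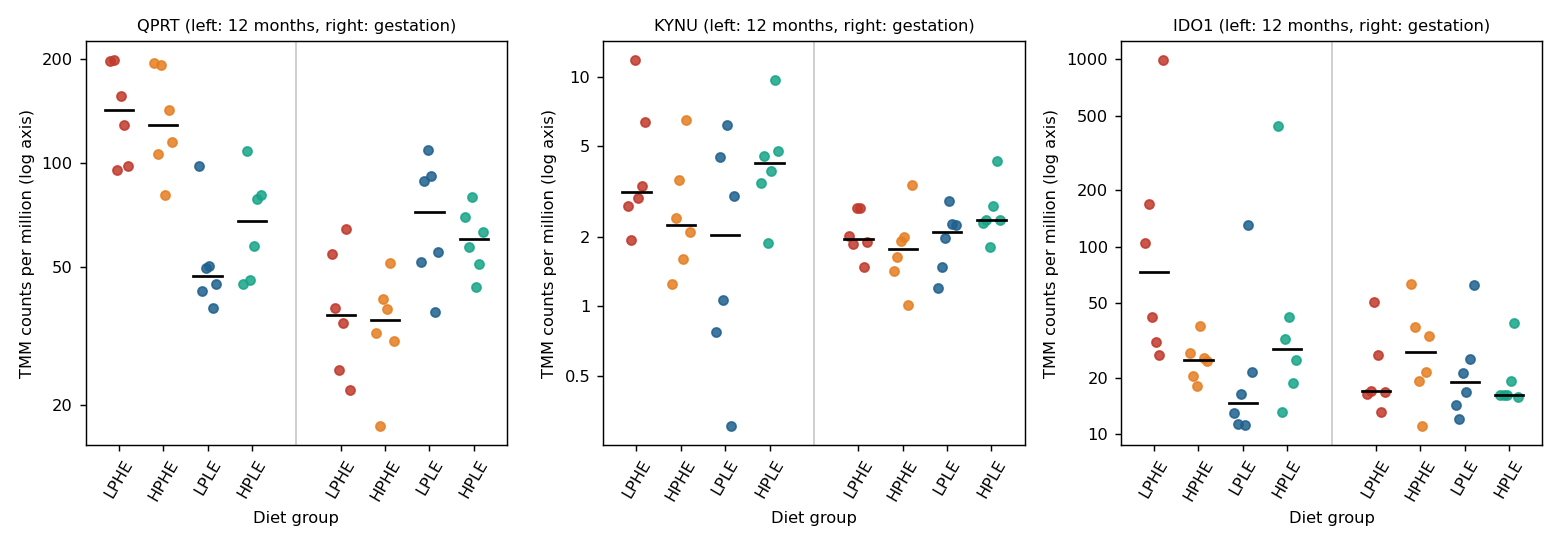
Level of QPRT, KYNU and IDO1 in every sample as TMM CPM on a log axis, by diet, with 12 months at the left and gestation at the right of each panel. Each point is 1 heifer and each black line the median of 6 heifers. QPRT medians of the HE diets lie at 142 and 129 CPM at 12 months and at 36.3 and 35.1 CPM in gestation, and IDO1 points above 100 CPM occur at 12 months but not in gestation.

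Over both protein levels QPRT averaged 142 ± 44.3 CPM in 12 HE heifers and 61.6 ± 23.6 CPM in 12 LE heifers (SD). The log2 fold change of HE-LE was 1.19 with a standard error of 0.186, and with an adjusted p of 5.04e-07 in the likelihood ratio test of edgeR QPRT ranked 4th of 13339 genes by p. In the same contrast 7.2% of the genes passed the adjusted p (FDR) threshold of 0.05. Leaving out each heifer in turn gave values from 1.12 to 1.32, and QPRT passed the threshold in all 24 of these fits. Without the libraries high in muscle markers the value was 1.20 with an edgeR FDR of 3.86e-06.

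In the LPHE-LPLE contrast, where an FDR of 0.1 was the threshold and 7.08% of the genes passed, the log2 fold change of QPRT was 1.43 (SE 0.265, edgeR FDR 1.61e-04). HPHE-HPLE gave 0.96 (SE 0.265), which ranked 25th by p with an unadjusted p of 2.94e-04 but an edgeR FDR of 0.157, in a contrast where 0.12% of genes passed. It passed when only the 12 samples of this pair were fitted (edgeR FDR 0.0494), and also without HPHE heifer 15, HPLE heifer 7 or LPLE heifer 4. Without the libraries high in muscle markers, 3 of HPHE and 1 of HPLE, it was 0.71 (edgeR FDR 0.655), the lowest value of all settings tried. QPRT is on the study's gene lists of both energy contrasts at 12 months, so these values and HE-LE over the same heifers describe the gene and add no independent evidence. The study's call in HPHE-HPLE was not reproduced by the main fit. The difference between both energy contrasts was 0.47 on the log2 scale, with an edgeR FDR of 1.0.

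The muscle markers moved with the LPHE-LPLE contrast. All 5 of them were lower in LPHE heifers, with sums of 0.685 to 1.37 CPM against 1.13 to 60.5 CPM in LPLE heifers. Without the libraries high in these markers the QPRT difference was 1.68 on the log2 scale with an edgeR FDR of 2.86e-05. That fit kept 3 LPLE heifers and left out LPLE heifer 4, the highest of its group in QPRT. Without heifer 4 alone the value was 1.66. The part of muscle in the QPRT difference was not tested. The matched muscle and fat cell markers are named in the study's tables, which list mostly genes picked on these samples at 12 months. Their directions at 12 months are therefore no independent evidence. Both fat cell markers were higher in HE than in LE heifers at 12 months. LEP, which encodes the hormone leptin, differed by 1.37 (edgeR FDR 3.32e-05) and CIDEC, a lipid droplet protein, by 0.54 (edgeR FDR 0.0203). Their summed levels had medians of 2686 and 2977 CPM in LPHE and HPHE and of 1446 and 1946 CPM in LPLE and HPLE heifers. Their part in the QPRT difference was not tested.

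In gestation the LE diets lay above the HE diets. The lowest, median and highest QPRT levels were 22.1, 36.3 and 64.6 CPM in former LPHE heifers and 17.3, 35.1 and 51.5 CPM in former HPHE heifers. Former LPLE heifers had 37.1, 72.0 and 109 CPM and former HPLE heifers 43.9, 60.2 and 79.8 CPM. The ranges of the HE and LE diets overlapped at both protein levels. Averages were 37.4 ± 13.8 CPM in HE and 66.5 ± 21.6 CPM in LE heifers (SD, 12 heifers each).

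HE-LE in gestation was -0.86 (SE 0.182, edgeR FDR 4.02e-04) in a contrast where 3.74% of the genes passed. It kept to values between -0.95 and -0.80 with each heifer left out and passed in all 24 fits, and it was -0.99 without the muscle-marker libraries (edgeR FDR 2.29e-04). Within low protein the value was -0.91 (SE 0.258, edgeR FDR 0.0628, 1.05% of genes passed). That call was lost in 7 of 24 fits with a heifer left out, those without LPHE heifers 5, 12, 16 or 24 or LPLE heifers 8, 10 or 14, at values from -0.94 to -0.80. It was -0.92 without the muscle-marker libraries (edgeR FDR 0.0644). Within high protein it was -0.82 (SE 0.257, edgeR FDR 0.133, 0.948% of genes passed), which did not pass, and -1.06 without the muscle-marker libraries (edgeR FDR 0.0848), which did. Exact two-sided permutation tests of the mean log2 levels in these pairs, 6 against 6 heifers, gave -0.85 (p = 0.0433) and -0.83 (p = 0.00649). Both fat cell markers were short of the threshold in gestation (LEP -0.25, edgeR FDR 0.606, and CIDEC -0.15, edgeR FDR 0.651).

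The change of the energy difference between the time points was tested directly in all 48 samples. For QPRT it was -2.05 on the log2 scale (SE 0.269, edgeR FDR 6.42e-11), which ranked 5th of 13718 genes, of which 21.3% passed. Values ran from -2.22 to -1.97 with single heifers left out, and QPRT passed in all 24 fits. Without the muscle-marker libraries the value was -2.19 (edgeR FDR 4.85e-10).

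Within heifers, QPRT fell between 12 months and gestation in 12 of 12 HE heifers. The falls ranged from 1.99-fold in LPHE heifer 20 to 6.00-fold in HPHE heifer 6, on the scale of CPM plus 0.5. LPHE heifer 5 went from 199 to 38.0 CPM and HPHE heifer 2 from 194 to 32.4 CPM. Of the 12 LE heifers, 6 were lower and 6 higher in gestation. LPLE heifer 4, the highest of its group at 12 months, went from 97.9 to 51.6 CPM, whereas LPLE heifer 10 went from 49.7 to 109 CPM. The log2 changes ran from -2.58 to -0.99 in HE heifers and from -0.92 to 1.12 in LE heifers, so the ranges did not touch, by a narrow gap. How many other genes fell in all HE heifers or had ranges apart was not counted. In the test of the change of the energy difference 21.3% of all genes passed.

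**Figure D2:**
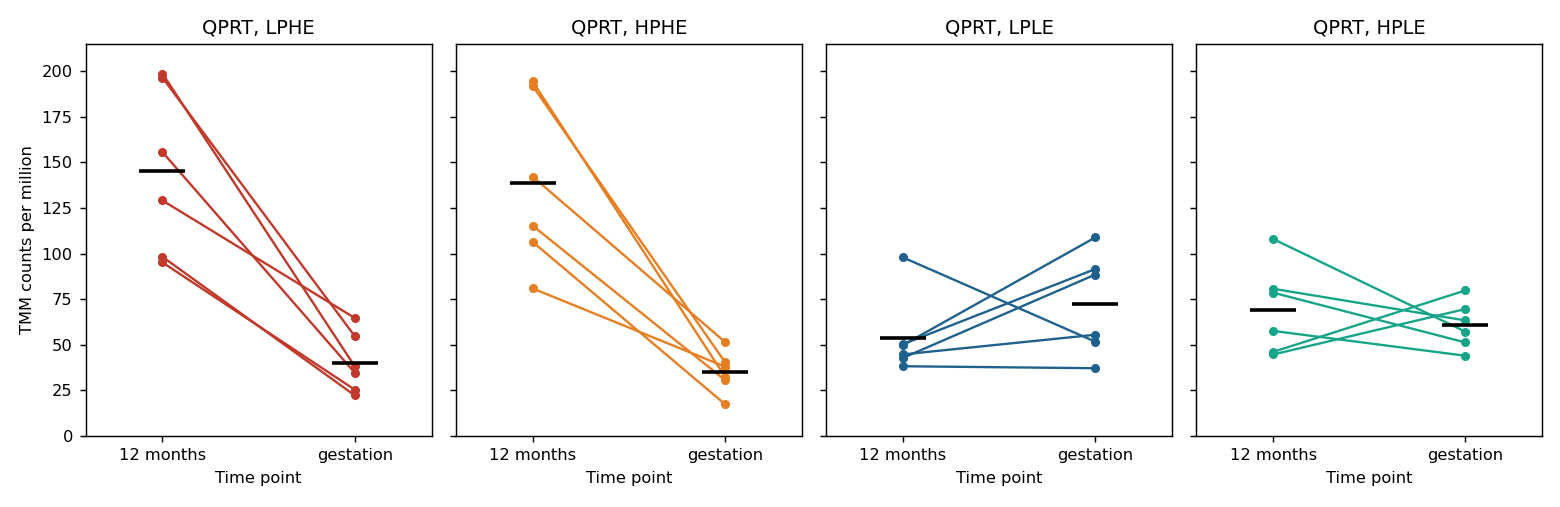
QPRT level (TMM CPM) of each heifer at 12 months and in gestation, 1 panel per diet. Lines join the samples of a heifer and black bars are the means of 6 heifers. All 12 lines of LPHE and HPHE go down, while LPLE and HPLE lines go both ways.

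The mean change was -1.93 ± 0.526 in HE and 0.13 ± 0.758 in LE heifers (SD, 12 each). The difference of -2.06 had a permutation p of 2e-05, the smallest that 100000 resamples can give. It too includes the 12-month levels on which the study listed QPRT. Among LPHE heifers the mean change was -1.90 and among HPHE heifers -1.97, each with an exact sign-flip p of 0.0313, the smallest that 6 pairs allow. In the model over all samples these changes were -1.90 (edgeR FDR 1.27e-09) and -1.97 (edgeR FDR 1.67e-10), and without the muscle-marker libraries -1.86 (edgeR FDR 3.53e-10) and -2.01 (edgeR FDR 4.90e-07). The background was wide here, since 29.8% of the genes passed in LPHE and 32.4% in HPHE heifers. The value was 0.45 in LPLE (edgeR FDR 0.703) and -0.22 in HPLE heifers (edgeR FDR 0.883), neither of which passed, where 0.598% and 2.62% of genes passed. Over the 4 diets QPRT changed by -0.91 (edgeR FDR 4.03e-10), or by -0.84 without the muscle-marker libraries (edgeR FDR 3.00e-07), and 37.4% of the genes passed in that contrast.

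KYNU, the kynureninase gene, stood at a low count and differed between the time points but passed in no diet contrast. At 12 months its lowest, median and highest levels were 1.95, 3.15 and 11.9 CPM in LPHE heifers and 1.26, 2.27 and 6.50 CPM in HPHE heifers. LPLE heifers had 0.30, 2.05 and 6.16 CPM and HPLE heifers 1.89, 4.22 and 9.66 CPM. All 4 ranges overlapped, and the order of the medians (HPLE, LPHE, HPHE, LPLE) did not follow energy or protein. The HE-LE log2 fold change was 0.12 at 12 months (SE 0.395, edgeR FDR 0.893) and -0.23 in gestation (SE 0.224, edgeR FDR 0.681).

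LPHE-LPLE of KYNU, which is also on the study's list for this contrast, was 0.93 (SE 0.570, edgeR FDR 0.385) and HPHE-HPLE -0.70 (SE 0.538, edgeR FDR 0.807). The study reports a larger LPHE-LPLE value and calls KYNU there, so its call was not reproduced here. With a filter described in the same way, the study kept fewer genes than the 13339 tested here. It called more genes in LPHE-LPLE than the 944 called here, so the fits were not identical. The reason for the missing KYNU call was not tested. The difference between these contrasts was 1.62 (SE 0.774), with an unadjusted p of 0.0359 and an edgeR FDR of 1.0. In gestation the medians lay between 1.79 CPM (HPHE) and 2.38 CPM (HPLE), and the highest heifer of all had 4.31 CPM.

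Over the 4 diets KYNU was lower in gestation by 0.76 on the log2 scale (log2 fold change -0.76, SE 0.225, edgeR FDR 0.00352). In that contrast 37.4% of all genes passed, and 19.4% of all genes passed as lower. Among single diets KYNU passed in LPHE, where 29.8% of all genes passed, with -1.23 (SE 0.452, edgeR FDR 0.0333). It no longer passed without heifer 12, at -0.79 (edgeR FDR 0.216), or without heifer 24, at -1.12 (edgeR FDR 0.112). Within heifers KYNU was lower in gestation in 18 of 24, with a mean log2 change of -0.45 (permutation p = 0.0199). All 6 LPHE heifers and all 6 HPLE heifers were lower (exact sign-flip p = 0.0313 for each diet), whereas LPLE and HPHE heifers split 3 to 3. With the heifer as a block the change over all diets was -0.50 (edgeR FDR 0.0307). Without the muscle-marker libraries and without the block it was -0.65 over all diets (edgeR FDR 0.0200) and -1.19 in LPHE heifers (edgeR FDR 0.0165).

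IDO1, the entry enzyme, was marked by single heifers with very high levels at 12 months. In LPHE heifers the lowest, median and highest levels were 26.7, 73.7 and 995 CPM, and the highest, heifer 24, was followed by 168.3 CPM in heifer 5 and 105 CPM in heifer 3. LPLE heifers had 11.3, 14.7 and 131 CPM, with heifer 18 far above the next value of 21.5 CPM. HPLE heifers had 13.1, 28.6 and 444 CPM, with heifer 1 above the next value of 42.3 CPM. HPHE heifers kept to a narrow range of 18.2, 25 and 38.1 CPM. More than 100 CPM was thus reached by 5 of 24 heifers at 12 months, from 3 of the 4 diets, and by 0 of 24 in gestation.

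In gestation the IDO1 medians were 17 CPM in LPHE, 27.6 CPM in HPHE, 19.1 CPM in LPLE and 16.2 CPM for HPLE. The highest values were 50.5, 63.6, 62.6 and 39.3 CPM in the same order, and all ranges overlapped. The diet with the highest median at 12 months, LPHE, was not the highest in gestation.

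LPHE-LPLE at 12 months gave a log2 fold change of 3.06 for IDO1 (SE 0.913, edgeR FDR 0.0287). The call rested on single heifers. Without LPHE heifer 24 the value was 1.42 (edgeR FDR 0.337), and without LPLE heifer 14 it was 2.78 (edgeR FDR 0.107). It was also lost with the quasi-likelihood test of edgeR (FDR 0.119), in the fit of the 12 samples of the pair (2.43, edgeR FDR 0.163) and without the muscle-marker libraries (2.33, edgeR FDR 0.379). The fit without these libraries kept 3 LPLE heifers, and heifer 18 with its 131 CPM was among them. With heifer 18 alone left out the value was 3.91. The part of muscle in the IDO1 difference was not tested. The exact permutation test, which weighs heifers on the log scale, gave a difference of 2.13 (p = 0.0498). IDO1 is on the study's list for this contrast, with a smaller fold change than the main fit gave here. These values too add no independent evidence.

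**Figure D3:**
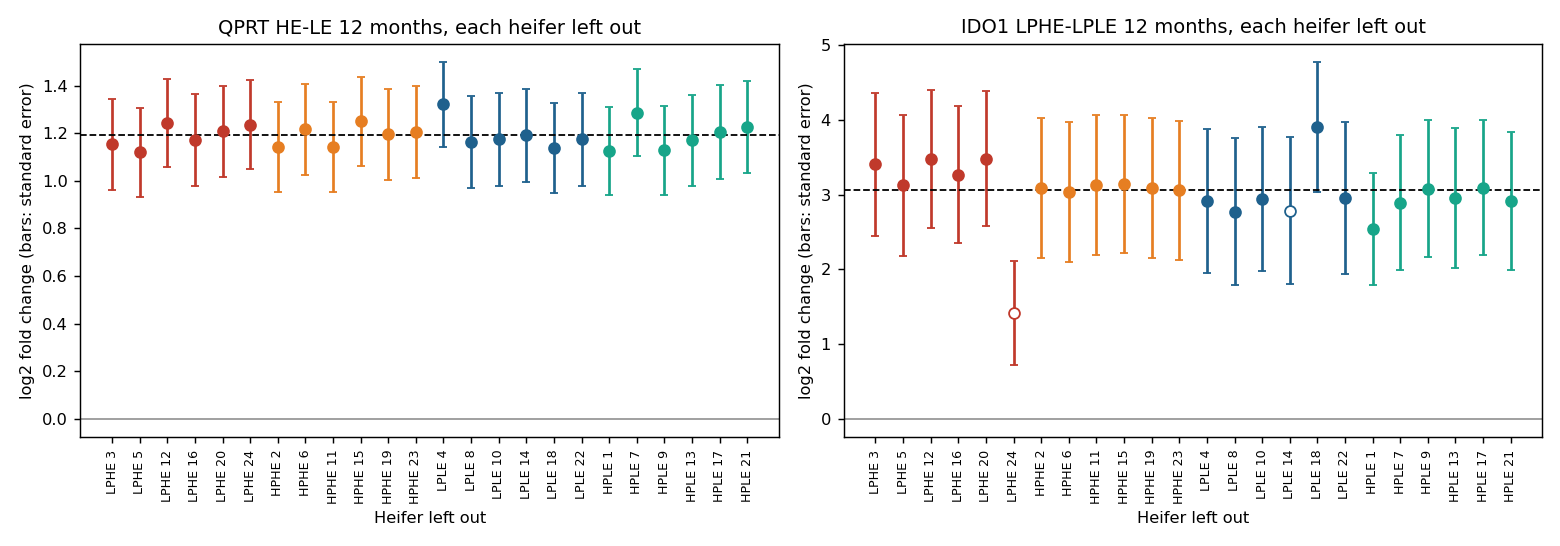
Log2 fold change with its standard error when each of the 24 heifers is left out, for QPRT in HE-LE (left) and IDO1 in LPHE-LPLE (right), both at 12 months. Filled points passed the FDR threshold, open points did not, and the dashed line is the value with all heifers. QPRT stays between 1.12 and 1.32, whereas IDO1 drops to 1.42 without LPHE heifer 24.

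HPHE-HPLE pointed the other way for IDO1, at -1.69 (SE 0.832, edgeR FDR 0.665), and was -0.03 without HPLE heifer 1. HPHE-LPHE was -3.30 (SE 0.851) and ranked 9th by an unadjusted p of 1.08e-04, but its edgeR FDR was 0.160 in a contrast where 0.0225% of genes passed. The exact permutation test of that pair gave -1.87 (p = 0.0152). Without the muscle-marker libraries the fitted value was -3.38 (edgeR FDR 1.0). Without LPHE heifer 24 the fitted value was -1.51, whereas the threshold was passed without HPLE heifer 1 or LPHE heifers 12, 16 or 20.

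The difference between both energy contrasts of IDO1 was 4.75 on the log2 scale (SE 1.14, edgeR FDR 0.0464, 0.105% of genes passed). It fell short of the threshold in 6 of 24 fits with a heifer left out. Those were the fits without HPLE heifer 1 (2.56), without LPHE heifer 24 (2.92, edgeR FDR 0.620) and without LPLE heifers 4, 8, 14 or 22 (4.55 to 4.68). The quasi-likelihood test (FDR 0.999) and DESeq2 (adjusted p 0.248) did not call it, and it was 4.34 without the muscle-marker libraries (edgeR FDR 1.0). Over both protein levels HE-LE was 0.68 at 12 months (edgeR FDR 0.576), -0.05 without LPHE heifer 24, and 0.22 in gestation (edgeR FDR 0.751).

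Of all genes 37.4% passed over time in the 4 diets together, 29.8% in LPHE and 2.62% in HPLE heifers. IDO1 was lower in gestation over the 4 diets (log2 fold change -1.40, SE 0.335, edgeR FDR 2.11e-04). With the heifer as a block it was -0.65 (edgeR FDR 0.0507), which did not pass, and without HPLE heifer 1 it was -0.93 (edgeR FDR 0.00708). Within heifers 12 were lower and 12 higher, with a mean log2 change of -0.75 (permutation p = 0.0593). LPHE changed by -3.41 (edgeR FDR 7.95e-05), by -2.0 with the block (edgeR FDR 0.00623), and by -1.68 without heifer 24 (edgeR FDR 0.0563). HPLE changed by -2.14 (edgeR FDR 0.0858), a call that was lost with the block (-0.85, edgeR FDR 0.544) and without HPLE heifer 1 (-0.30, edgeR FDR 0.945), 7 (-2.36), 9 (-2.25) or 21 (-2.31). Without the muscle-marker libraries the values were -1.59 over all diets (edgeR FDR 4.92e-04), -3.37 in LPHE (edgeR FDR 1.47e-04) and -2.58 in HPLE heifers (edgeR FDR 0.0696). In LPHE heifer 24 the level went down 57.3-fold and in HPLE heifer 1 26.7-fold, on the scale of CPM plus 0.5. Neither IDO1 (-0.36, edgeR FDR 0.768) nor KYNU (-0.36, edgeR FDR 0.643) passed in the test of the energy difference between the time points.

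KYNU and IDO1 varied more between heifers of a diet at 12 months than in gestation. The SD of log2 levels within diets was 0.892 and 0.365 for KYNU, a ratio of 2.44, which 0.48% of 13135 genes exceeded. For IDO1 it was 1.5 and 0.735, a ratio of 2.04, which 1.77% of genes exceeded. QPRT had an SD of 0.487 and 0.519, a ratio of 0.939, and the median ratio over all genes was 1.14. These ratios are descriptions without a test.

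No member passed in the contrasts of protein level, genetic line or of protein with time. HP-LP called 0.0225% of genes at 12 months and 0.0746% in gestation, and the smallest unadjusted p of a member was 0.0981 and 0.189. HMY-LCM called 0.0075% and 0.0522% of genes, with smallest member p-values of 0.437 and 0.102. The change of HP-LP between the time points called 0.102% of genes and had a smallest member p of 0.163. HPLE-LPLE called 0.0225% of genes at 12 months and 0.0746% in gestation, HPHE-LPHE in gestation 0.00746% and the difference between both energy contrasts in gestation 0.00746%, and none of these calls was a member. In the 5 contrasts over all heifers 0 members had an unadjusted edgeR p under 0.05, and 0 were called by the quasi-likelihood test or by DESeq2.

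The other genes of the pathway could be read only where the study's tables pair their identifier with a symbol. These tables list mostly genes that the study picked on these samples at 12 months, so the counts below are not independent evidence of a direction. Of 13 kynurenine pathway genes 5 were matched, IDO1 and KYNU included, and 3 of these 5 were higher in HE heifers at 12 months, where 4.69% of all genes were. AADAT and CCBL2, which encode aminotransferases that turn kynurenine into kynurenic acid, differed by 0.62 (edgeR FDR 0.0137) and 0.38 (edgeR FDR 0.0411). The CCBL2 call held in 9 of 24 fits with a heifer left out, at 0.32 to 0.44. It was lost without LPHE heifers 3, 5, 16 or 24, HPHE heifers 2, 6, 11, 19 or 23, LPLE heifers 10, 14 or 18 or HPLE heifers 1, 9 or 13, and also with the library size in place of TMM (0.31, edgeR FDR 0.0988) or no filter (0.39, edgeR FDR 0.0565), which would leave 2 of 5. GOT2, the mitochondrial aspartate aminotransferase, which can also use kynurenine, differed by 0.59 (edgeR FDR 6.81e-04). The median of the 5 genes was 0.59 at 12 months, beside -0.03 over all genes tested.

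In gestation 0 of the 5 passed in HE-LE by edgeR's likelihood ratio test, with a median of -0.23, and DESeq2 called AADAT and GOT2 lower. Over time 5 of 5 were lower in gestation, where 19.4% of all genes were, and 4 of 5 with the heifer as a block, since IDO1 then did not pass (edgeR FDR 0.0507). The energy difference of AADAT, GOT2 and CCBL2 changed by -1.03, -0.86 and -0.50 between the time points, all past the threshold. AADAT ranged from 12.3 to 32.1 CPM in LPHE and from 8.20 to 17.3 CPM in LPLE heifers at 12 months, and from 6.17 to 14.6 CPM and 7.67 to 12.2 CPM in gestation. Its diets overlapped at both time points.

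Of 9 genes of NAD synthesis 2 were matched, QPRT and NMNAT1, which encodes the nuclear enzyme that makes NAD from its mononucleotide. NMNAT1 was higher in HE heifers at 12 months by 0.48 (edgeR FDR 0.00732), stood at -0.20 in gestation (edgeR FDR 0.471) and had a change of the energy difference of -0.68 (edgeR FDR 0.00147). NADK, the kinase that turns NAD into NADP and 1 matched gene of 6 for NAD conversion, passed in both directions. It was 0.39 at 12 months (edgeR FDR 0.0246) and -0.34 in gestation (edgeR FDR 0.0213), where 2.66% of all genes were lower in HE heifers. With the library size in place of TMM neither NADK value passed (0.32, edgeR FDR 0.0659, and -0.29, edgeR FDR 0.0730). The 12-month call was also lost without LPHE heifers 3 or 5, HPHE heifer 2, LPLE heifers 14 or 18 or HPLE heifers 1 or 9 (all fits 0.34 to 0.43), and the gestation call without LPHE heifer 24 or HPLE heifer 7 (all fits -0.37 to -0.31).

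SLC7A8, which encodes a transporter of neutral amino acids and was the matched gene of 8 for tryptophan transport and other use, was 1.15 at 12 months (edgeR FDR 0.00845) and -0.74 in gestation (edgeR FDR 0.116). The change of its energy difference was -1.87 (edgeR FDR 6.53e-04). SARM1, an enzyme that cleaves NAD and the matched gene of 16 NAD consumers, was -0.35 and 0.04 in these contrasts and passed in neither. It was lower in LPHE-LPLE at 12 months (-0.68, edgeR FDR 0.0615) and higher in gestation in LPHE heifers (0.47, edgeR FDR 0.0765). Without the muscle-marker libraries the 12-month values of CCBL2 (0.40, edgeR FDR 0.132), NMNAT1 (0.47, edgeR FDR 0.0794) and NADK (0.32, edgeR FDR 0.255) no longer passed. The CCBL2 and NMNAT1 values were close to those with all libraries. That fit had fewer samples, and 607 genes passed in it against 960 in the main fit. The part of muscle in these differences was not tested.

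**Figure D4:**
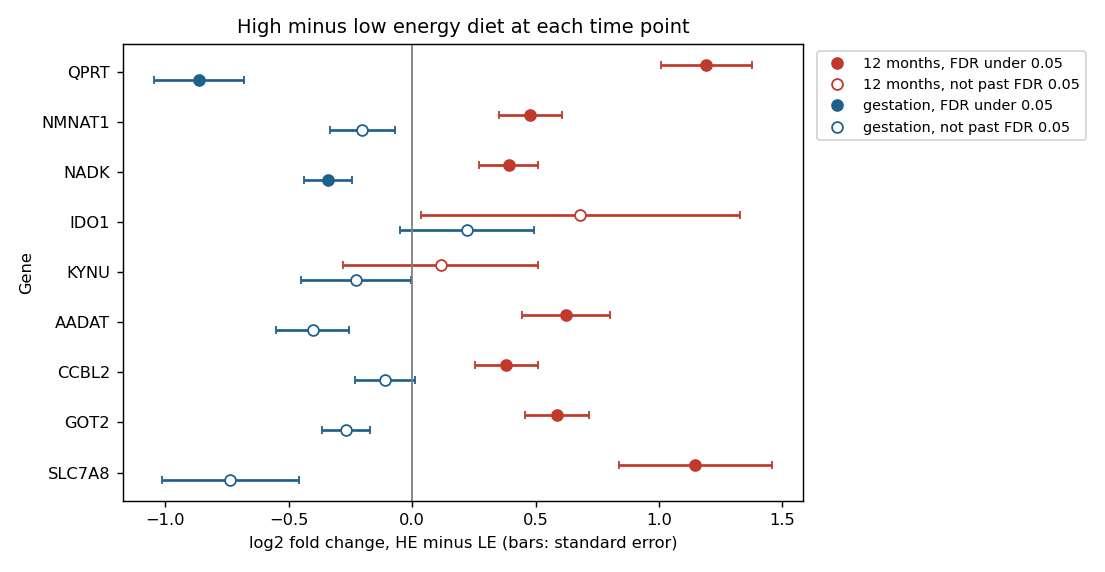
Log2 fold change of HE-LE with its standard error at 12 months (red) and in gestation (blue) for the members and the matched genes of their pathway. Filled points passed an FDR of 0.05. QPRT lies at 1.19 and -0.86 and NADK at 0.39 and -0.34, and these are the genes with filled points on both sides of 0.

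The 5 genes with a symbol whose levels were most like QPRT were TXN2, COQ9, ATP5G1, UQCRC1 and COX6A1. Likeness was the lower of the Spearman rho over 24 samples at 12 months and over 24 in gestation, among 998 genes with a symbol, most of them picked by the study on these samples at 12 months. TXN2, the mitochondrial thioredoxin, had rho of 0.937 and 0.935, and COQ9, a protein of ubiquinone synthesis, 0.946 and 0.933. ATP5G1, a subunit of ATP synthase, had 0.916 and 0.934, UQCRC1 of respiratory complex III 0.903 and 0.922 and COX6A1 of cytochrome c oxidase 0.910 and 0.903. The genes compared share their libraries and depths, and diet means were not removed, so the choice itself favours genes with the energy difference of QPRT and the kinds of genes the study listed. These are descriptions without a test. All 5 genes were higher in HE heifers at 12 months, by 0.45 to 0.57, and lower in gestation, at -0.44 to -0.35, which is a smaller step than that of QPRT in each case. At 12 months COQ9 (0.40, edgeR FDR 0.113) and UQCRC1 (0.49, edgeR FDR 0.0951) no longer passed in the smaller set of samples without the muscle-marker libraries. In gestation the COX6A1 call (edgeR FDR 0.0437) was lost under 5 of the other settings and held in 9 of 24 fits with a heifer left out, at -0.40 to -0.31. It was lost without LPHE heifers 5, 12, 16 or 24, HPHE heifers 6, 11 or 23, LPLE heifers 8, 10, 14 or 22 or HPLE heifers 1, 7, 9 or 21. Among the 5 settings was the library size in place of TMM (-0.30, edgeR FDR 0.0763).

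**Figure D5:**
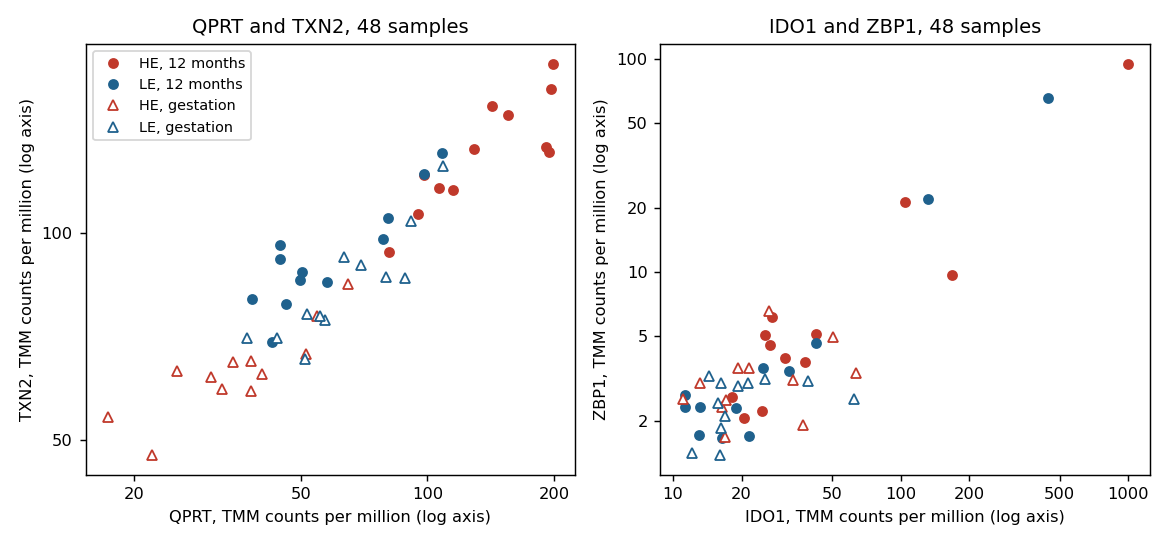
TMM CPM, on log axes, of QPRT against TXN2 (left) and of IDO1 against ZBP1 (right) in 48 samples. Colour gives the energy level and the symbol the time point. QPRT and TXN2 lie along 1 band in which HE heifers are at the top at 12 months and at the bottom in gestation, and the highest IDO1 samples are also the highest for ZBP1.

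The genes most like IDO1 were UBD (rho 0.567 and 0.574), CD180 (0.681 and 0.509), ZBP1 (0.852 and 0.463), CXCL10 (0.740 and 0.443) and CD274 (0.797 and 0.443). UBD encodes a ubiquitin-like protein, CD180 a receptor of B cells, ZBP1 a sensor of nucleic acids, CXCL10 a chemokine and CD274 the ligand PD-L1. A further 12 genes without a symbol ranked above UBD. These genes were chosen for likeness to IDO1, so their levels in the heifers high in IDO1 are a description. Heifer 24 ranked 1st of 24 at 12 months for CD180, ZBP1 (95.2 CPM), CXCL10 (25.6 CPM) and CD274 (19.3 CPM) and 3rd for UBD. Heifer 1 ranked 2nd for ZBP1 (65.6 CPM), CXCL10 (8.40 CPM) and CD274 (8.57 CPM), 6th for CD180 and 11th for UBD. Heifer 18 ranked 3rd for ZBP1 (22.1 CPM) and 6th for CD274 but 13th for CXCL10, 18th for UBD and 20th for CD180. Heifers 3 and 5 ranked 4th and 5th for ZBP1 and between 2nd and 10th for the other 4 genes.

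The muscle markers of heifers 24 and 1 summed to 0.685 and 8.44 CPM at 12 months. None of the 11 macrophage, 7 dendritic cell and 8 lymphocyte markers was matched to an identifier, so the share of these cells in the biopsies was not tested. CXCL10, the 1 matched gene of 15 for the response to interferon gamma, was 3.42 in LPHE-LPLE at 12 months (edgeR FDR 0.00489) and 1.04 in HE-LE (edgeR FDR 0.239). Its levels were low, with a median of 2.11 CPM in LPHE heifers and a highest value of 25.6 CPM in heifer 24. LPLE heifers had a median of 0.54 and a highest value of 0.85 CPM. No values with single heifers left out are given for CXCL10, and the response to interferon gamma was not tested.

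For KYNU the likeness was weak, with VAV3, a signalling protein, first at rho of 0.482 and 0.443. SDHC of respiratory complex II had 0.471 and 0.320, the chemokine CCL5 0.475 and 0.316, IVD, an enzyme of leucine breakdown, 0.346 and 0.275, and the growth factor receptor FGFR2 0.274 and 0.365. A further 3 genes without a symbol ranked above VAV3.

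Relations of the members with each other were computed after subtraction of the diet means, as 9 relations over 24 heifers each. None passed on Pearson's r after the Benjamini-Hochberg adjustment (lowest adjusted permutation p = 0.147). QPRT and IDO1 in gestation had r of -0.47 (permutation p = 0.0220, adjusted 0.147) and a Spearman rho of -0.56 (permutation p = 0.00454, adjusted 0.0409), with r of -0.46 without the 2 heifers farthest from the median. At 12 months the same pair had r of -0.41 (permutation p = 0.0461, adjusted 0.147) and rho of -0.32 (permutation p = 0.130, adjusted 0.234). A heifer's level at 12 months and in gestation had r of 0.16 for QPRT, 0.23 for KYNU and -0.09 for IDO1, with permutation p-values of 0.447, 0.272 and 0.700.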

How the data were processed

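The members, gene lists and tests were chosen with earlier results of these data known. The files deposited by the authors hold raw, unnormalized counts of reads on each Ensembl gene. Reads of polyA libraries were trimmed with Cutadapt 1.3, aligned to the bovine UMD3.1 assembly with TopHat2 2.0.12 and counted with HTSeq. The annotation release and the strand setting are not given in the sources used here. The 5 summary rows of each table were left out. Depth ranged from 14815595 to 61027456 counts on genes per sample, and the spread between heifers limited the precision.

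Groups came from the sample labels. Tests used edgeR 4.0.16 in R 4.3.3 (glmFit, tagwise dispersions, TMM, likelihood ratio test), as the study's methods name glmFit, with diet and genetic line as terms. A gene was tested where 3 or more samples reached 2 CPM (13339 genes at 12 months, 13403 in gestation, 13718 over both). P-values were adjusted by Benjamini-Hochberg over all genes tested. Diet pairs, changes within a diet and interactions used an FDR of 0.1, and contrasts over all heifers 0.05. Time contrasts were fitted without a heifer block, and the standard error is the log2 fold change divided by the root of the likelihood ratio statistic. Single genes were compared on log2(CPM + 0.5) with exact two-sided permutation tests (smallest p 0.00216 for 6 against 6, and 0.0313 for 6 pairs) or 100000 resamples (scipy 1.17.1). In all 24 such diet pair tests p-values were left unadjusted.

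Heifer numbers pair the time points, since the labels give the same animal. Deviations from the group means correlated at a median r of 0.304 over 24 pairs (-0.06 to 0.58, 20 over 0.1). Samples of a group differed by more than sampling noise (lowest chi-square per degree of freedom 38.3 over 120 pairs), so all were kept.

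Symbols came from the study's tables, which pair 1006 identifiers with a symbol and matched 19 of 126 list genes. Genes named are the members, all tested genes of the kynurenine and NAD synthesis lists, genes of other lists past the threshold in HE-LE or over time (at most 5 by p) and the 5 genes with a symbol most like each member. SARM1 fell outside this rule and was named after its values were seen. Alternatives were the quasi-likelihood test, DESeq2 1.42.0, RLE or library size scaling, other filters and fits, a heifer block, other pseudocounts and each heifer left out. The estimateDisp dispersions and the fit without 10 libraries high in muscle markers were chosen after seeing the data. Scripts were tested on simulated data.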

Additional observations from a re-analysis of the deposited data

Results flagged for a closer look

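Dixon's 95% critical value is 0.625 of the range, and it assumes normally distributed values. In 9 of the 24 combinations of a member, diet and time point 1 heifer stood apart by more than this, always at the top. The ratio was taken on CPM, where high values are spread wider than on the log scale used elsewhere, so no rate by chance is given. For IDO1 these were LPHE heifer 24 (995 CPM), HPLE heifer 1 (444 CPM) and LPLE heifer 18 (131 CPM) at 12 months, and LPLE heifer 22 (62.6 CPM), LPHE heifer 12 (50.5 CPM) and HPLE heifer 17 (39.3 CPM) in gestation. The heifers that stood apart at 12 months were not those that stood apart in gestation. For KYNU HPLE heifer 17 stood apart at both time points (9.66 CPM at 12 months and 4.31 CPM in gestation), and for QPRT LPLE heifer 4 did at 12 months (97.9 CPM).

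The energy difference changed between the time points, by a direct test in all 48 samples, for QPRT (-2.05), SLC7A8 (-1.87), AADAT (-1.03), GOT2 (-0.86), NADK (-0.73), NMNAT1 (-0.68) and CCBL2 (-0.50), as log2 fold changes in gestation minus those at 12 months. These tests include the 12-month samples on which the study picked most of the genes in its tables. At 12 months the energy difference of IDO1 differed between the protein levels by 4.75 on the log2 scale, a value that was 2.56 without HPLE heifer 1.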

How the results depend on the processing

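The members' 26 fold changes kept direction and side of the threshold in 241 of 263 other settings and in 590 of 624 fits with a heifer left out. QPRT in HE-LE, in the change of HE-LE over time and in LPHE-LPLE at 12 months changed no call under any of these. QPRT in HPHE-HPLE at 12 months passed with its 12 samples alone (0.96, edgeR FDR 0.0494), was 0.71 without the muscle-marker libraries (edgeR FDR 0.655) and 0.83 to 1.14 with heifers left out. In gestation its LPHE-LPLE call was lost with all 48 samples in 1 fit (-0.89), without genetic line (-0.87) and by the quasi-likelihood test (-0.91), with -1.08 to -0.80 for left-out heifers. Its HPHE-HPLE value there passed with 12 samples (-0.81) and without the muscle-marker libraries (-1.06), with -0.93 to -0.69 for left-out heifers.

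IDO1 in LPHE-LPLE at 12 months lost its call with 12 samples (2.43), the quasi-likelihood test (3.05) and without the muscle-marker libraries (2.33), ranging from 1.42 to 3.91 with heifers left out, and its exact test gave 2.05 without passing for CPM of the library size. IDO1 in HPHE-LPHE passed with all 48 samples (-3.25), no filter (-3.28) and 12 samples (-2.55), with -3.62 to -1.51 for left-out heifers. Its difference between the energy contrasts was lost with at least 10 counts per sample (4.74), DESeq2 (4.75), estimateDisp dispersions (4.75), the quasi-likelihood test (4.75) and without the muscle-marker libraries (4.34), ranging from 2.56 to 5.87. Its HE-LE ranged from -0.046, a reversed sign without LPHE heifer 24, to 1.25. KYNU's change in LPHE ranged from -1.41 to -0.79, and its mean within-heifer change in LPLE of 0.04 was -0.066 with a pseudocount of 2. The causes of these changes were not tested.

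With the heifer as a block, the IDO1 change over time was -0.65 over all diets and -0.85 in HPLE heifers and passed in neither. The HPLE change was also lost with estimateDisp dispersions (-2.14), no filter (-2.14) and the quasi-likelihood test (-2.14), and ranged from -2.61 to -0.30 with heifers left out. The block changed no other call of the members. It raised the genes called over time from 82 to 493 in LPLE and from 360 to 736 in HPLE heifers.

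The count of genes called, against which members are read, was 960 in HE-LE at 12 months and became 1465 with all 48 samples, 1598 with DESeq2 and 607 without the muscle-marker libraries (620 to 1579 with heifers left out). In LPHE-LPLE it was 944 and in the same settings 1533, 1615 and 543 (484 to 1719). HE-LE in gestation had 501, with DESeq2 1151 and estimateDisp 801 (342 to 754). HPHE-HPLE at 12 months had 16, with DESeq2 25, 12 samples 61, the quasi-likelihood test 0 and without the muscle-marker libraries 8 (5 to 67). The difference between the energy contrasts had 14, with all 48 samples 27, at least 10 counts 2, no filter 22, and 0 by the quasi-likelihood test and without the muscle-marker libraries (5 to 54). HPHE-LPHE had 3, with all 48 samples 28, no filter 26, 12 samples 8, and 0 with at least 10 counts, by the quasi-likelihood test and without the muscle-marker libraries (1 to 23). LPHE-LPLE in gestation had 141, with all 48 samples 59, DESeq2 423, no genetic line 71, 12 samples 212 and the quasi-likelihood test 0 (26 to 322). HPHE-HPLE in gestation had 127, with all 48 samples 77 and the quasi-likelihood test 0 (48 to 286). Over time LPLE heifers had 82, with DESeq2 127, the quasi-likelihood test 43 and without the muscle-marker libraries 124 (39 to 200). HPHE heifers ranged from 2943 to 4629 and HPLE heifers from 178 to 445 with heifers left out. Protein, line and protein-by-time contrasts called 0 to 29 genes.

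KYNU gave no value at 12 months or over time with at least 10 counts in every sample, since it was filtered out. HMY-LCM was not run with all 48 samples in 1 fit. With 6 heifers per diet, IDO1 contrasts are limited by single heifers, and KYNU contrasts by low counts as well, as few as 6 in 1 sample.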

Other observations

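Among LPLE heifers at 12 months, KYNU was at 0.30, 0.774 and 1.07 CPM in the 3 heifers of the HMY line and at 3.03, 4.49 and 6.16 CPM in the 3 of the LCM line. In gestation the same heifers overlapped, at 1.20 to 2.29 CPM in the HMY line and 1.49 to 2.88 CPM in the LCM line. The lines also overlapped in LPHE, HPHE and HPLE heifers at 12 months. This split was picked after the values were seen and was not tested. How many other genes split in this way was not counted. Over all diets HMY-LCM of KYNU at 12 months was -0.12 on the log2 scale (edgeR FDR 0.951).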
